A study of Mus musculus with 20 samples.

Results

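The genes described here encode the machinery of oxidative phosphorylation, the chain of enzyme complexes in the inner mitochondrial membrane that turns the energy of oxidised food into ATP. They were chosen by gene name alone: every non-control probe whose gene symbol began with Ndufa, Ndufb, Ndufc, Ndufs or Ndufv, with Cox followed by 4 to 8, with Atp5 or with Uqcr, or was Sdha, Sdhb, Sdhc or Sdhd. This gave 131 probes of the 39429 on the array, for 90 of 30210 genes, and each gene was represented by its probe with the highest mean signal. Assigned to a complex by the start of the name alone, the genes were 42 of complex I, 4 of complex II, 8 of complex III, 19 of complex IV and 17 of complex V. The names also take in 7 genes counted here as encoding no subunit: the complex I assembly factors Ndufaf1 to Ndufaf4, Cox4nb, Atp5s and Atp5sl. Cox7a2l, a factor for joining complexes III and IV, was counted as a subunit.

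The tissue was the prefrontal cortex of male Swiss Webster mice, 12 weeks of age when they were moved to single cages and habituated for 22 days. A stressed mouse was put as an intruder into the cage of a group of males, and its undisturbed brothers, kept in a separate adjacent room, served as controls. There were 4 stress groups, each with its own controls. Acute stress meant 1 encounter, 24 h before the tissue was taken. Chronic stress lasted for either 8 or 13 days, and the recovery group had 5 days of rest after 13 days of encounters. RNA of 3 mice in equal parts made a pool, each group had 3 such pools, and every two-colour Agilent array carried 1 stress pool and the pool of its control brothers.
The value reported for a pool is the log2 ratio of stress over control, so that a value above 0 means more signal in stressed than in control mice. No single mouse was measured. The 9 mice pooled in a group were those of its 12 with the most RNA of high quality. The dissected slice, 1 mm thick, lay at the frontal pole beside the olfactory bulb. Stressed and control mice also lived in different rooms, and the room and the stress cannot be told apart.

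Complex I (NADH dehydrogenase) and complex II (succinate dehydrogenase, also an enzyme of the citric acid cycle) feed electrons into the chain, complex III (cytochrome bc1) passes them to cytochrome c, complex IV (cytochrome c oxidase) gives them to oxygen, and complex V (ATP synthase) uses the resulting proton gradient to make ATP. Complexes I, III, IV and V are built from subunits of both the nuclear and the mitochondrial genome, whereas complex II is wholly nuclear. Neurons of the cortex depend heavily on this pathway, because ion pumping and synaptic transmission consume much ATP. Several complex IV subunits have tissue isoforms, with muscle or testis forms that replace the widespread ones.

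The 20 arrays were of even quality. Between 57.8% and 69.4% of non-control spots were well above background in both channels of an array, and no spot counted was saturated. Signals of 6 of 6 neuron markers were well above background on all arrays, and of 2 of 4 olfactory bulb markers. Red cell markers (hemoglobin genes and Alas2) had pool medians of 1.372, 1.581 and 1.239 after 13 days of stress. Of these, 6 of 6 were called higher by limma, against 0.0228% of all probes called. Oligodendrocyte markers had pool medians of 0.216, 0.337 and 0.165 after acute stress, without a call. Of these, 3 of 5 were higher at an unadjusted limma p under 0.05, against 2.38% of all probes. Meninges markers had pool medians of -0.171, -0.148 and -0.142 after acute stress. All 5 of 5 were below 0, the lowest at -0.80, against 19411 of all 39429 probes below 0. Of these meninges markers 3 had an unadjusted limma p under 0.05, against 2.57% of all probes lower, and 0 were called. After 13 days astrocyte markers had pool medians of -0.061, -0.068 and -0.202, and olfactory bulb markers -0.078, -0.186 and -0.108. Oligodendrocyte and microglia medians were then also below 0 in every pool, without a call in any of these lists. Neuron, endothelium and meninges medians lay on both sides of 0, and skeletal muscle medians above it. The part of these shifts in the values given here was not tested. Red cell markers also had pool medians of 0.598, 0.901 and 0.587 after 8 days, without a call. Each slide held an array of every group, in a position that went with the group, so that position and group cannot be told apart.

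Of the 90 genes, 86 were well above background in both channels on all 20 arrays. The remaining 4 were Cox7b2 and Atp5s (19 arrays each), Cox8b (14 arrays) and Cox8c (0 arrays). Cox8c was not well above background on any array, and no fold is given for it, though it stays in the counts over the 90 genes. Probes of 59 genes were alone for their gene, 24 genes had 2 probes and 7 had 3 or more. The brightest probes of Atp5k, Atp5l and Atp5j2 were placed by the array's mm9 annotation on chromosomes Y, X and 9, away from the genes themselves on chromosomes 5, 9 and 5. They can also read copies of those genes.

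None of the 90 genes passed the test (adjusted p under 0.05 by limma and a log2 ratio over 0.5 in size) at any time point. Over all probes the same test called 9 at 13 days (0.0228%) and 1 at acute stress (0.00254%), and it called 0 (0%) both at 8 days and in the recovery group. The lowest adjusted p among the genes was 0.799 after acute stress (Cox7a1), 1 after 8 days of stress (Atp5l), 0.311 after 13 days of stress (Ndufv3) and 0.999 in recovery. The ratios were small. Of the 90, 87 had a mean log2 ratio of at most 0.1 in size (rounded to 2 decimals) following acute stress, 77 at 8 days, 84 at 13 days and 87 in the recovery group. Because the tissue was a mixture of cell types, fewer cells of a type and less RNA per cell cannot be told apart in any of these values.

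**Figure D1:**
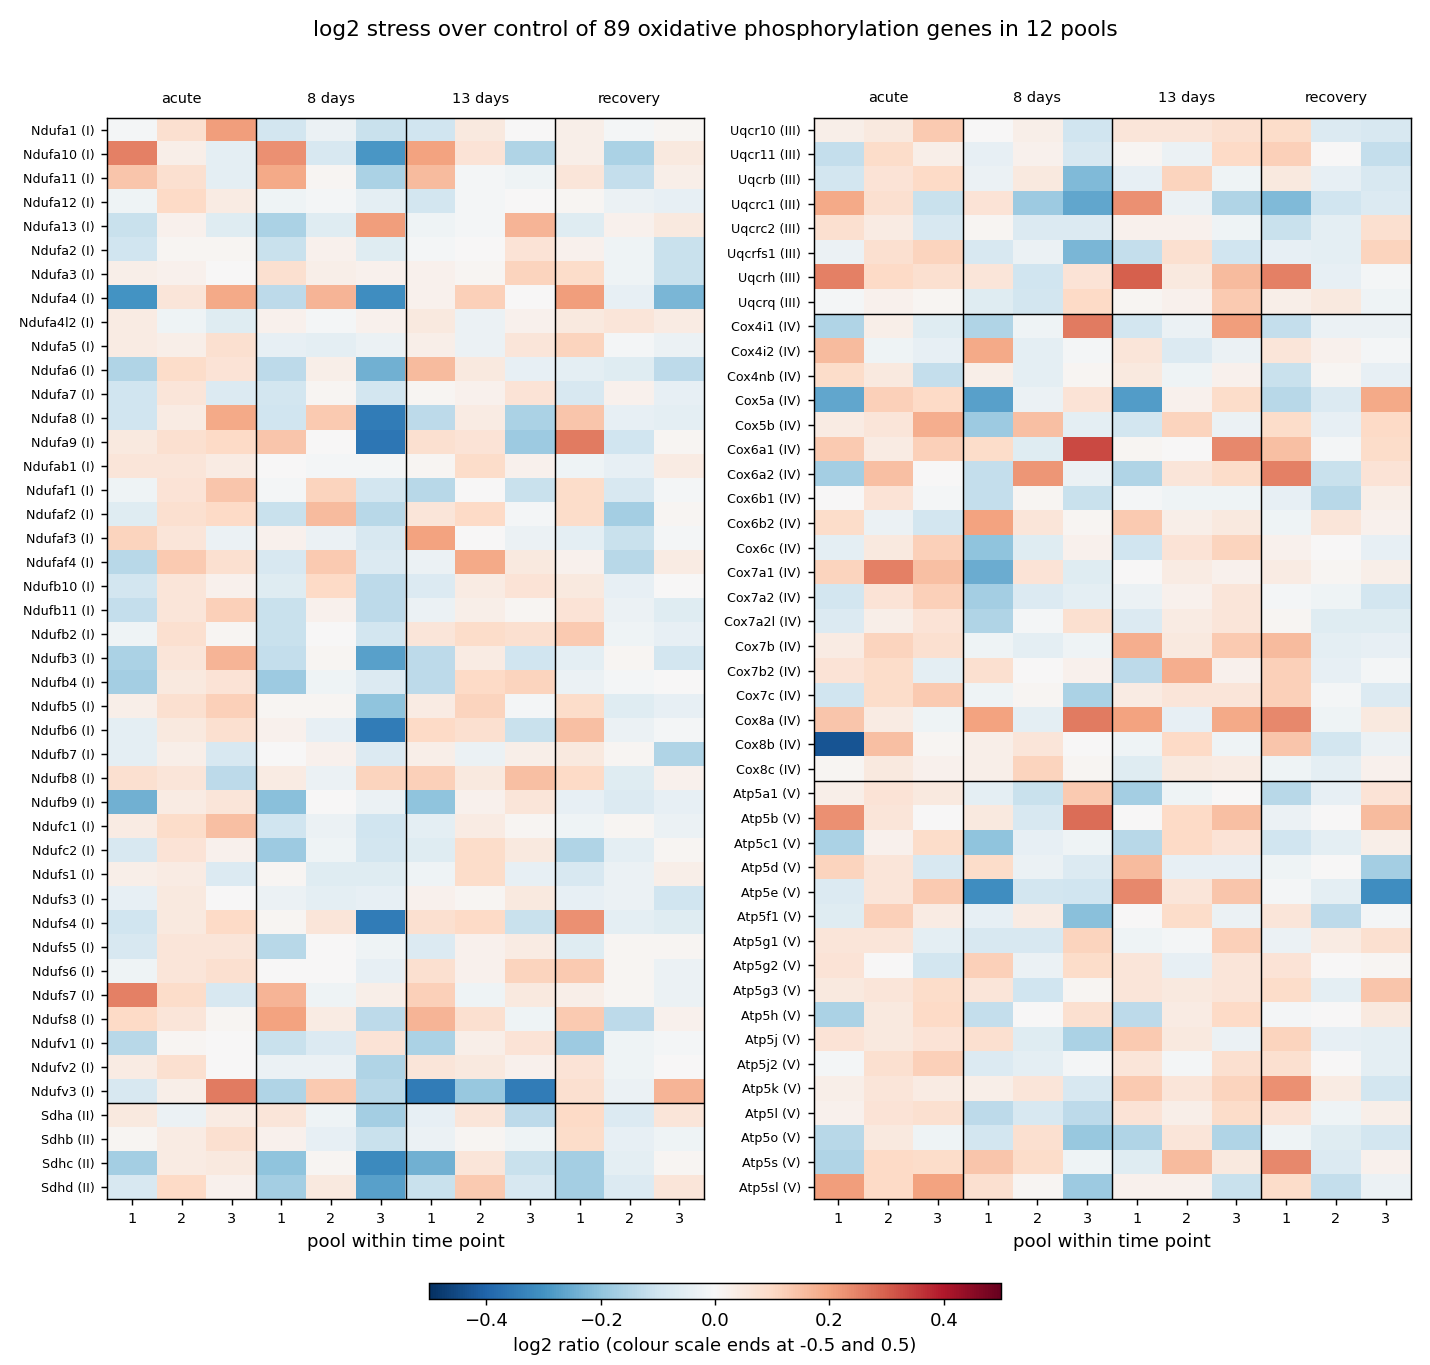
log2 ratio of stress over control for 89 of the 90 genes (rows, complex in brackets) in each of the 12 pools (columns, 3 per time point). Most cells are pale, the deepest being Cox8b in pool 1 of acute stress (-0.43), and the Ndufv3 row is blue in all 3 pools after 13 days (-0.35, -0.19 and -0.35).

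The design placed a bound on what could have been missed. The 95% confidence interval of the log2 ratio lay between -0.5 and 0.5 for 90 of 90 genes at each time point, and between -0.25 and 0.25 for 84 genes following acute stress, 77 at 8 days, 83 at 13 days and 88 in the recovery group. The median width of these intervals to either side was 0.112. They take in only the spread between pools. The 90 genes stayed inside 0.5 in 19 of 24 other ways of processing the data, and the exceptions were few genes except where arrays were centred on their median in place of loess. Then the spread between pools was such that only 3, 3, 3 and 2 of the 90 intervals lay inside, in time order.

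**Figure D2:**
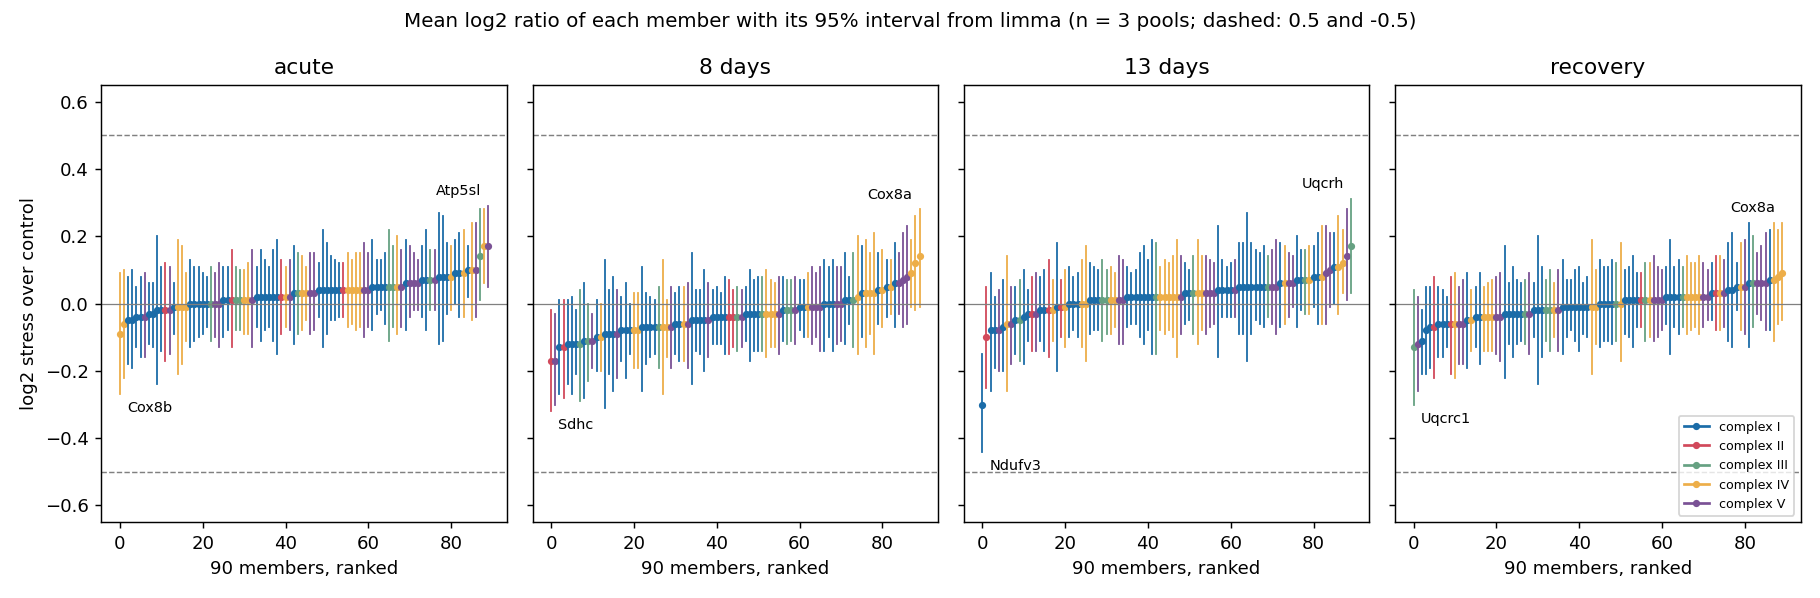
Mean log2 ratio of stress over control of each gene with its 95% interval from limma, ranked within each time point and coloured by complex (n = 3 pools). All intervals lie between the dashed lines at -0.5 and 0.5, and the lowest point after 13 days of stress is Ndufv3 at -0.30 (interval -0.44 to -0.15).

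At an unadjusted p under 0.05, 4 of the 90 genes were higher and 0 lower after acute stress, against 2.38% and 2.57% of all probes. After 8 days of stress 0 were higher and 5 lower (all probes: 0.723% and 1.67%), after 13 days 3 were higher and 1 lower (3.05% and 4.13%), and in recovery 0 were higher and 1 lower (0.926% and 2.63%). The most, 5 genes, are 5.56% of the 90.

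The signs of the ratios were unevenly divided at the first 3 time points and nearly even in recovery. After acute stress 69 of 90 genes had a mean ratio above 0, after 8 days of stress 21 of 90, after 13 days 66 of 90 and in recovery 44 of 90. Over all probes the share above 0 was 50.8%, 49.1%, 49.5% and 48.9% in time order. Among the 3332 probes with a mean log2 signal over 12 it was 48.4%, 34.6%, 43.5% and 43.4%, so that bright probes as a whole were also mostly below 0 after 8 days. All 3 pools were above 0 for 21 genes and below 0 for 0 genes after acute stress, where the corresponding shares of all probes were 13.9% and 14.4%. After 8 days the counts were 4 above and 17 below (all probes: 7.5% and 11.1%), after 13 days 22 above and 5 below (12.2% and 14.4%), and in recovery 2 above and 12 below (8.37% and 12.6%). Genes of the same complexes share pools and arrays, so these counts are not independent observations.

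The median log2 ratio over the 90 genes was 0.029 after acute stress, with pool medians of -0.010, 0.060 and 0.047. It was -0.039 after 8 days (pool medians -0.035, -0.011 and -0.067), 0.022 after 13 days (0.005, 0.040 and 0.029) and -0.003 in recovery (0.048, -0.036 and -0.011). The 3 pools were on the same side of 0 after 8 and 13 days of stress only. The median over all probes was within 0.002 of 0 at each time point. These genes are mostly strongly expressed, 71 of them having a mean log2 signal over 12. All 3332 probes of that brightness had medians of -0.002, -0.033, -0.011 and -0.011 in time order, and their value after 8 days is close to that of the 90 genes. The part of signal strength in the 8 day value was not tested.

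By complex the medians were similar. Complex I had a median of 0.024 following acute stress, -0.050 at 8 days, 0.024 at 13 days and -0.010 in the recovery group. Complex III had 0.039, -0.037, 0.021 and -0.007, complex IV 0.031, -0.006, 0.019 and 0.011, and complex V 0.039, -0.020, 0.031 and 0.010 at the same time points. Complex II stood lowest after 8 days with a median of -0.087, but its pool medians were -0.076, -0.005 and -0.220 and it holds only 4 genes. The SD between pools was 0.110 for that value, larger than the gap to any other complex. The 8 day pool medians of complex IV (-0.023, -0.013 and 0.008) and of complex V (-0.039, -0.044 and -0.021) overlapped. No test between complexes was run.

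**Figure D3:**
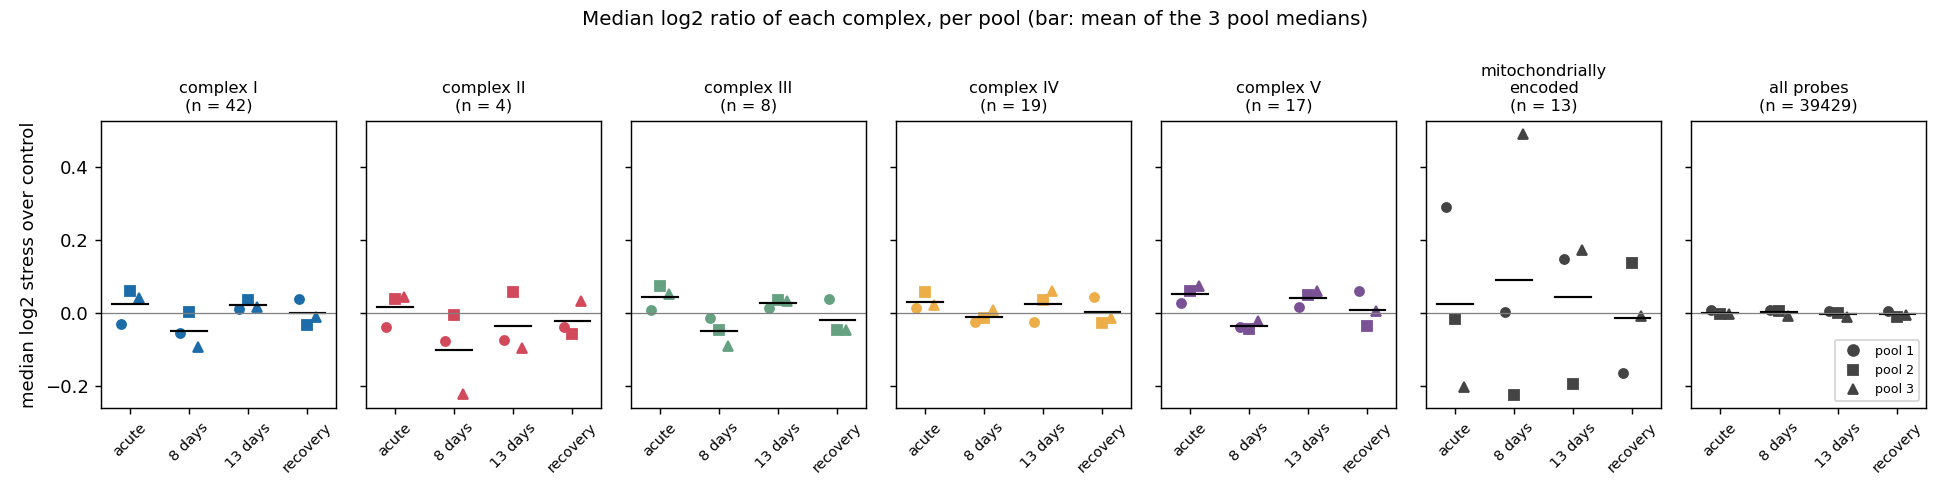
Median log2 ratio of stress over control in each pool (points) and the mean of the 3 pool medians (bars) for complexes I to V, the 13 subunits encoded by mitochondrial DNA, and all probes. The lowest point of the nuclear complexes is complex II in pool 3 after 8 days (-0.220), whereas the mitochondrially encoded genes range between -0.223 and 0.489.

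Promoters of 74 of the 90 genes were found in RefSeq (build GRCm38.p6), 80 in all, each from 250 bases before the start of transcription to 50 after it. They were searched on both strands for 3 motifs of factors known to drive nuclear genes of mitochondria. The NRF1 motif GCGCATGCG stood in 11.2% of the 80, against 1.75% of all 32851 promoters. The GABP motif CCGGAAGT stood in 6.25% against 3.89%, and the YY1 motif AAGATGGCG in 11.2% against 1.4%. Forms of the NRF1 and YY1 motifs 1 and 2 letters longer were searched first and then shortened, so these letters were chosen with results in view. None of the motifs contains another, and a match is a description of the letters, not of a bound site. The 4 examples are shown because they belong to genes the results turn on: Atp5sl, Uqcrh and Atp5l were among the genes with the lowest p, and Uqcrh and Cox6a1 had the largest dye effects. Capitals mark the motif or its reverse complement, and each window of 120 bases is written 5′ to 3′ on the strand of the gene.
Atp5sl, chr7:25619373-25619492, plus strand, YY1: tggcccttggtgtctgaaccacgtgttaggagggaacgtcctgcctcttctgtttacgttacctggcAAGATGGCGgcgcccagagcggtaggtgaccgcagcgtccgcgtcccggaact
Uqcrh, chr4:116075071-116075190, minus strand, GABP: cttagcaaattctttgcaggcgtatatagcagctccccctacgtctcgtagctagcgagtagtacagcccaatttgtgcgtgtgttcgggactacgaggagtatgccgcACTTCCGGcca
Cox6a1, chr5:115349001-115349120, minus strand, NRF1: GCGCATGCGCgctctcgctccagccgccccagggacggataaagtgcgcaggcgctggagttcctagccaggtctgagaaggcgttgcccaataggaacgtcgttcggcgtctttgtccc
Atp5l, chr9:44920864-44920983, minus strand, NRF1: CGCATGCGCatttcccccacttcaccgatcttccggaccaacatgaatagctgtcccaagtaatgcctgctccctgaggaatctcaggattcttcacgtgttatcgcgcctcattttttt
Counted from the start site, the YY1 match of Atp5sl starts at -53, the GABP match of Uqcrh at -11, and the first NRF1 matches of Cox6a1 and Atp5l at -162 and -241. After acute stress these genes had mean log2 ratios of 0.17, 0.14, 0.10 and 0.06, none of them called. At the later time points Atp5sl was below 0 (-0.03, -0.03 and -0.02), and Atp5l was -0.11 after 8 days. Uqcrh and Cox6a1 were above 0 at each time point. Ndufv3 and Cox7a1, with the lowest p after 13 days and after acute stress, had a promoter but no match.

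Among the 42 complex I genes, Ndufv3 gave the lowest ratio of all 90 genes at any time point. It encodes a small accessory subunit of the NADH-binding module, and its transcripts are known to be spliced into a short and a long form. In the 3 pools after 13 days of stress its log2 ratio was -0.35, -0.19 and -0.35. The 3 pools lay below 0, and so did each of the 5 arrays, with -0.35 in pool 1, -0.17 and -0.20 on the original and swapped arrays of pool 2, and -0.37 and -0.33 on those of pool 3. The mean normalised log2 level was 13.38 in stressed and 13.68 in control pools. This is a log2 ratio of -0.30 (SE 0.069, n = 3 pools), or 0.815-fold, with an unadjusted limma p of 0.00092 and an adjusted p of 0.311.

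At the other time points the Ndufv3 pools lay on both sides of 0. Its pools read -0.08, 0.03 and 0.26 after acute stress, -0.15, 0.13 and -0.14 after 8 days of stress, and 0.08, -0.03 and 0.17 in recovery. The 13 day pools lay below every other pool of the gene. The mean level was 13.38, 13.36, 13.38 and 13.66 in stressed pools in time order, against 13.31, 13.42, 13.68 and 13.58 in their control pools. Tested as a difference between time points, 13 days of stress minus acute stress gave -0.37 (SE 0.098, unadjusted p 0.0025, adjusted p 0.595) and recovery minus 13 days gave 0.37 (SE 0.098, unadjusted p 0.0023, adjusted p 0.960). No gene of the 90 was called in these contrasts, which called 0.00254% and 0% of all probes. At an unadjusted p under 0.05 the first contrast had 0 genes higher and 3 lower (all probes 2.08% and 2.61%), and the second 1 higher and 1 lower (2.26% and 2.68%).

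The Ndufv3 value rested on 1 of 3 probes. The brightest probe lies at chr17:31668209-31668268 (mm9). The other probes lie at chr17:31665148-31665207 and chr17:31663758-31663817. After 13 days of stress they read 0.18, 0.02 and 0.08, and 0.02, -0.14 and -0.04 in the 3 pools, with means of 0.09 (unadjusted p 0.10) and -0.05 (unadjusted p 0.32). The difference of 0.389 between the brightest and the second probe was the largest between the brightest and any other probe of a gene at any time point. Which transcripts each probe reads was not tested.

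**Figure D4:**
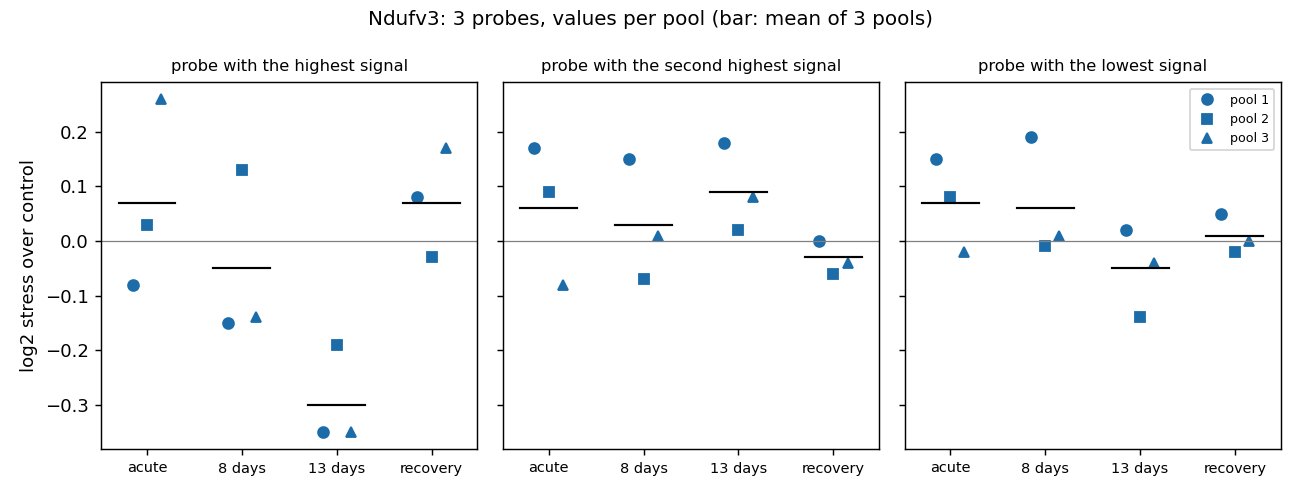
log2 ratio of stress over control for the 3 probes of Ndufv3 in each pool (points) with the mean of 3 pools (bars). Only the probe with the highest signal is below 0 in all 3 pools after 13 days of stress (mean -0.30), while the other means there are 0.09 and -0.05.

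In the other genes, over probes well above background, the largest such difference was 0.142, after 13 days. In 38 pairs of a dimmer with the brightest probe of the same gene, both well above background, the sign was the same in 27 following acute stress, 31 at 8 days, 27 at 13 days and 21 in the recovery group. The median difference in size was 0.0235, 0.0398, 0.0312 and 0.0363. The median size of the stress ratios of the 90 genes was 0.0374.

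Ndufv1, which carries the flavin where NADH is oxidised, read -0.14, 0.01 and 0.00 after acute stress, -0.11, -0.07 and 0.07 after 8 days, -0.16, 0.03 and 0.07 after 13 days, and -0.18, -0.02 and -0.01 in recovery. Pool 1 was the lowest at each time point. Ndufs1, the largest subunit of the electron input module, had means of 0.00, -0.04, 0.01 and -0.03 (SE 0.040).

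Ndufc1, a small accessory subunit, named here after its values were seen, had an unadjusted p of 0.021 after acute stress (0.04, 0.09 and 0.15, mean 0.10).

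The other complex I genes named by rule were smaller still. Ndufa3, an accessory subunit, read 0.08, 0.03 and 0.02 after 8 days of stress. Ndufa4l2, a hypoxia-responsive relative of Ndufa4, read 0.05, 0.06 and 0.04 in recovery. Ndufaf1, an assembly factor, read -0.14, 0.00 and -0.11 after 13 days of stress. The 4 Ndufaf assembly factors had medians of 0.044, -0.018, 0.052 and -0.025 in time order, in the range of the subunits.

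By their brightest probes, the 4 complex II genes had means below 0 after 8 days (-0.17 to -0.04) and after 13 days of stress (-0.10 to -0.01). Sdhc, a membrane anchor subunit, read -0.20, 0.01 and -0.32 after 8 days (mean -0.17, SE 0.069, unadjusted p 0.027, adjusted p 1) and -0.24, 0.06 and -0.11 after 13 days. Sdhd, the other anchor, read -0.17, 0.05 and -0.27 after 8 days (mean -0.13, unadjusted p 0.072) and -0.11, 0.13 and -0.08 after 13 days. In both anchors pool 2 was above 0 while pools 1 and 3 were below. Sdha, the catalytic flavoprotein, read 0.06, -0.02 and -0.17, and Sdhb, its iron-sulfur partner, 0.02, -0.04 and -0.11 after 8 days, with means of -0.04 each. The dimmer probe of Sdhc had means of -0.07 after 8 days (unadjusted limma p 0.25) and 0.01 after 13 days. That of Sdhb had -0.12 (unadjusted limma p 0.08) and -0.01. After acute stress the means of the 4 genes were between -0.02 and 0.04, and in recovery between -0.07 and 0.03.

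Among the 8 complex III genes Uqcrh, the acidic hinge protein between cytochrome c1 and cytochrome c, had the highest ratios. It read 0.25, 0.10 and 0.08 after acute stress (mean 0.14, SE 0.063, unadjusted p 0.041, adjusted p 0.976) and 0.30, 0.05 and 0.16 after 13 days of stress (mean 0.17, unadjusted p 0.018, adjusted p 0.607). After 8 days it read 0.06, -0.10 and 0.07, and in recovery 0.25, -0.04 and -0.01. Pool 1, the pool without a dye swap, was the highest or nearly the highest at each time point, and this gene also had the largest dye effect, given below.
Uqcrc1, a core protein, read -0.22, -0.10 and -0.07 in recovery (mean -0.13, unadjusted p 0.11), the lowest mean ratio of that time point, but 0.23, -0.03 and -0.15 after 13 days. Uqcrfs1, the Rieske iron-sulfur protein, read -0.08, -0.03 and -0.23 after 8 days (mean -0.11, unadjusted p 0.055).

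Complex IV, with 19 genes, allowed widespread and tissue-restricted isoforms to be set side by side within the same pools. Cox4i1, the widespread form of subunit IV, read -0.15, 0.03 and -0.06 after acute stress, -0.15, -0.02 and 0.26 after 8 days, -0.09, -0.03 and 0.21 after 13 days, and -0.12, -0.03 and -0.03 in recovery. Cox4i2, the form known from lung, had means of 0.03, 0.04, -0.01 and 0.02. The lowest unadjusted p of either form was 0.41.

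Cox7a1, known from heart and skeletal muscle, had the lowest p of the 90 genes after acute stress. It read 0.11, 0.25 and 0.15 there (mean 0.17, SE 0.052, unadjusted p 0.0063, adjusted p 0.799), and the 3 pools lay above 0. After 8 days it read -0.25, 0.07 and -0.06, after 13 days 0.00, 0.04 and 0.02, and in recovery 0.04, 0.01 and 0.03. Skeletal muscle markers had pool medians of 0.003, -0.010 and 0.020 after acute stress, with 3 of 6 of them well above background. Cox7a2, the widespread isoform, read -0.17, -0.07 and -0.05 after 8 days (mean -0.10, unadjusted p 0.047, adjusted p 1) and had means of 0.04, 0.02 and -0.04 at acute stress, 13 days and recovery. Cox7a2l, a factor for joining complexes III and IV, had means of 0.01, -0.03, 0.01 and -0.04 in time order, and its pools after 8 days read -0.15, -0.01 and 0.08.

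Of the subunit VIIb pair, Cox7b read 0.18, 0.05 and 0.13 after 13 days of stress (mean 0.12, SE 0.044, unadjusted p 0.015, adjusted p 0.574), with means of 0.08, -0.03 and 0.02 at acute stress, 8 days and recovery. Cox7b2, its testis counterpart, had means between 0.02 and 0.04. Of the VIa pair, Cox6a1 read 0.13, 0.04 and 0.12 after acute stress and 0.09, -0.06 and 0.33 after 8 days. Its means were above 0 at each time point (0.10, 0.12, 0.08 and 0.08, SE 0.066). Cox6a2, the muscle form, had means of -0.01, 0.02, 0.00 and 0.07.
Of the VIb pair, Cox6b1 had means of 0.02, -0.07, -0.02 and -0.05, and Cox6b2, the testis form, read 0.20, 0.06 and 0.01 after 8 days (mean 0.09, unadjusted p 0.078). Cox8a had the highest mean of the 90 genes after 8 days and in recovery, with pools of 0.20, -0.05 and 0.26 (mean 0.14, unadjusted p 0.066) and 0.24, -0.02 and 0.05 (mean 0.09). Pool 2 was below 0 in each case. Cox8b, the muscle form, ran from -0.43 in pool 1 to 0.15 in pool 2 after acute stress, close to background. Cox5a, a core nuclear subunit, read -0.26, 0.12 and 0.10 after acute stress and -0.28, 0.02 and 0.09 after 13 days, with pool 1 alone below 0.

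In complex V, Atp5e, the epsilon subunit at the foot of the rotor stalk, alternated in sign between time points. It read -0.31, -0.09 and -0.10 after 8 days of stress (mean -0.17, SE 0.064, unadjusted p 0.022, adjusted p 1), 0.24, 0.06 and 0.14 after 13 days (mean 0.14, unadjusted p 0.041, adjusted p 0.669) and -0.01, -0.05 and -0.31 in recovery (mean -0.12, unadjusted p 0.077, adjusted p 0.999). The 13 day pools did not overlap with those of 8 days or of recovery. Recovery minus 13 days of stress was -0.27 (SE 0.090, unadjusted p 0.011, adjusted p 0.995). After acute stress the pools were -0.07, 0.06 and 0.13.

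Atp5l, the g subunit of the membrane part, had the lowest p of the 90 genes after 8 days and was named for it. It read -0.13, -0.08 and -0.13 (mean -0.11, SE 0.035, unadjusted p 0.0078, adjusted p 1), and after 13 days 0.07, 0.03 and 0.09. Its probe is the one that the annotation placed on chromosome X. Atp5l had 6 probes, and the others were placed on chromosome 9, where the gene lies. After 8 days their means lay between -0.20 and -0.13 (unadjusted limma p between 0.0043 and 0.015). After 13 days they lay between -0.01 and 0.03. The catalytic core did not share these values: Atp5a1 had means of 0.05, -0.01, -0.06 and -0.04 (SE 0.053), and Atp5b means of 0.10, 0.08, 0.09 and 0.05 (SE 0.065), with 0.28 in pool 3 after 8 days as the highest. Atp5g1, Atp5g2 and Atp5g3 encode the same mature c-ring subunit with different import sequences. By their brightest probes, their means lay between -0.02 and 0.03 for Atp5g1, between 0.00 and 0.06 for Atp5g2, and between -0.01 and 0.07 for Atp5g3. The dimmer probe of Atp5g1 had means of -0.03, -0.04, -0.11 and -0.09 in time order. Its unadjusted limma p was 0.017 after 13 days and 0.038 in recovery, and it was not called. The dimmer probe of Atp5g2 had means of -0.06, -0.04, -0.06 and -0.01.
Atp5sl, a relative of Atp5s that takes part in complex I assembly rather than in ATP synthase, read 0.21, 0.10 and 0.20 after acute stress (mean 0.17, SE 0.054, unadjusted p 0.0076, adjusted p 0.810). Its 3 pools lay above 0 there, and its means at the later time points were -0.03, -0.03 and -0.02. The difference 13 days minus acute stress was -0.20 (SE 0.076, unadjusted p 0.024, adjusted p 1).

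The dye of the label went with differences in these genes no smaller than those between stress and control. Pools 2 and 3 of each time point were hybridised a second time with the dyes exchanged. Over the 90 genes the correlation of the original with the turned swapped array was between -0.75 and -0.25 in the 8 pairs. Over all probes it was between -0.36 and -0.09. The cause of these negative values was not tested. Genes on 1 array share dyes, labelling and slide, and these correlations are a description. The dye effect of a probe was taken as original minus swap, divided by 2, and holds any other difference between these arrays too. Its median size over the 90 genes was 0.0544 on the log2 scale, against 0.0374 for the stress ratios over the 4 time points, and in 19 genes it had the same sign in 8 of 8 pairs, 11 of them brighter in Cy5 and 8 in Cy3. For 35 genes it was larger in size than any of their 4 stress ratios.

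The dye effect was largest in Uqcrh at 0.27, followed by Cox6a1 and Cox8a at 0.24 each, and lowest in Sdhd at -0.20. Uqcrh read 0.53 on the original array of pool 3 after 13 days of stress and -0.22 on its swap. In pools 2 and 3, averaging original and swap cancels a dye effect that is equal on both arrays, but pool 1 had only the array with stress in Cy5. Over the 90 genes, pool 1 values correlated with the dye effect at r between 0.42 and 0.64 at the 4 time points, against -0.45 to 0.39 in pools 2 and 3. For Uqcrh the mean over time points was 0.21 in pool 1 and 0.04 in pools 2 and 3. For Sdhc it was -0.19 in pool 1 and -0.04 in pools 2 and 3, with a dye effect of -0.16.
With a dye term fitted to the 20 arrays, chosen after the dye effect had been seen, Uqcrh after 13 days was 0.09 (unadjusted limma p 0.093). Ndufv3 was then -0.28 (unadjusted limma p 0.00038, adjusted p 0.118). That fit took arrays rather than pools, with a fitted correlation of 0.0424 within a pool. Original and swapped arrays of a pool thus counted nearly as separate samples, and these p-values do not measure the spread between pools alone. GC content of the probes did not go with the dye effect over the 90 genes (r = -0.08, GC between 25% and 55%).

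**Figure D5:**
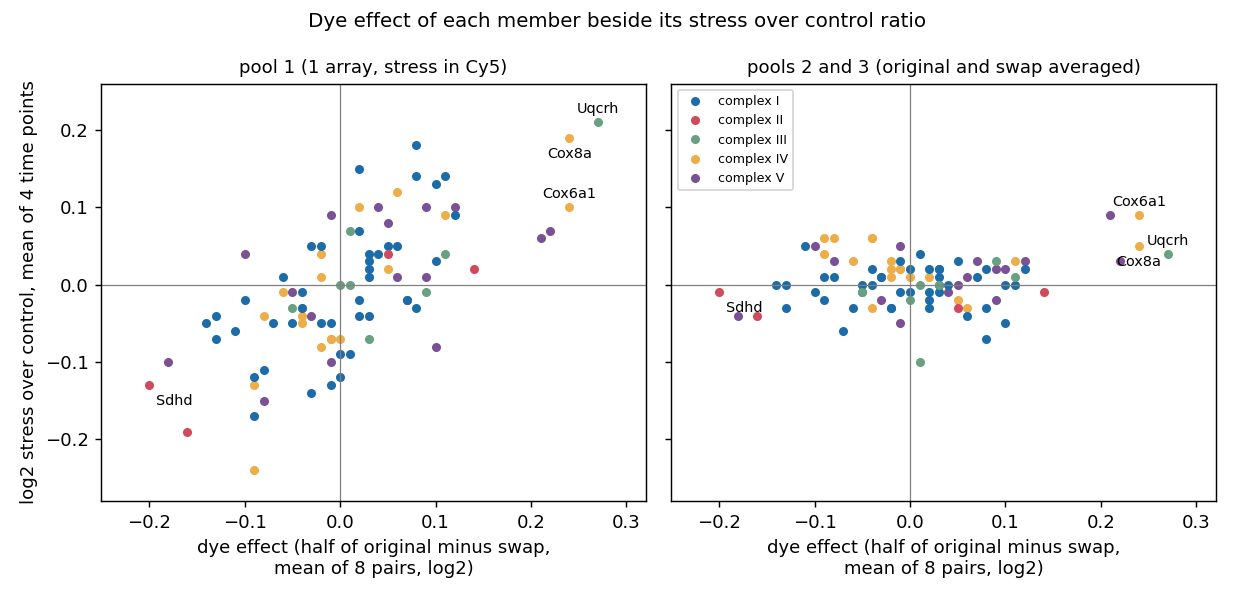
Dye effect of each gene (log2, original minus swapped array divided by 2, mean of 8 pairs) against its log2 ratio of stress over control, averaged over the 4 time points, in pool 1 and in pools 2 and 3. In pool 1, whose arrays all carried stress in Cy5, the points follow the dye effect with Uqcrh at 0.21, while in pools 2 and 3 they lie close to 0 with Uqcrh at 0.04.

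The 13 subunits encoded by the mitochondrial genome, which the name rule leaves out, behaved differently from the nuclear genes in 1 respect, their spread. Their median SD between pools of a group was 0.290, against 0.0906 for the 90 genes and 0.0959 for all probes well above background. Their pool medians were 0.291, -0.015 and -0.203 after acute stress, 0.004, -0.223 and 0.489 after 8 days, 0.149, -0.193 and 0.173 after 13 days, and -0.163, 0.136 and -0.009 in recovery. Pools of 1 group thus lay on both sides of 0 at each time point, and 0 of 13 genes were called. The original and swapped arrays of a pool gave medians of the same sign in 3 of 8 pairs.
Among them COX1, the catalytic subunit of complex IV, gave -0.01, 0.09 and -1.97 in recovery (mean -0.63, unadjusted p 0.063, adjusted p 0.999), a value carried by pool 3 alone. In the same pool the nuclear complex IV genes had a median of -0.012. COX2 and COX3 read 0.09 and 0.01 there.

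Lists around the chain showed the same small sizes. The 22 other assembly factors had medians of 0.014, -0.027, -0.003 and -0.021 in time order, with 0 calls. After 8 days 20 of 22 lay below 0, against 20053 of all 39429 probes, and their pool medians were -0.04, 0.009 and -0.066. The 13 citric acid cycle genes had medians of 0.037, -0.010, 0.028 and -0.008 in time order. The 12 regulators of mitochondrial biogenesis, among them Ppargc1a, Nrf1 and Tfam, had 0.015, -0.008, -0.010 and -0.001. The 76 mitochondrial ribosomal protein genes had 0.012, -0.031, 0.014 and -0.013, the same order of signs as the 90 genes, and the 7 antioxidant and uncoupling genes 0.058, -0.018, 0.092 and 0.012. The 15 glycolysis genes measured of 16 had 0.030, 0.055, 0.071 and -0.004, and the 104 cytosolic ribosomal protein genes -0.010, 0.014, 0.050 and 0.006. None of these genes was called. Of 4 nuclear genes of the chain whose names fall outside the rule, the medians were 0.011, -0.087, 0.054 and -0.020. They were the subunit genes Cyc1, Usmg5 and 2010107E04Rik, and Cycs, which encodes cytochrome c.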

How the data were processed

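Each two-colour array compared a pool of stressed with a pool of control mice. The deposited files hold scanner intensity values per spot, which the authors extracted with Agilent Feature Extraction, and a table of log2 ratios processed by the authors, used here as an alternative only. Intensities were background-corrected (normexp, offset 50), normalised within arrays (loess) and between arrays (Aquantile), and averaged per probe. Swapped arrays were turned and averaged with their originals, giving 3 pools per group. Ratios were tested with limma 3.58.1 in R 4.3.3 over 39429 probes with Benjamini-Hochberg adjustment. With 20 arrays, their number limits the precision. Pools are separate samples, and p-values of the main fit measure the spread between them. That spread was fitted as a variance per probe shared by all time points and moderated over probes. An SE or p-value therefore does not rest on the 3 pools of its time point alone. A pool with a single array counted as much as a pool with its swap. Swapped arrays of pool 1 were not used here.

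Genes were named by rule: per time point up to 3 highest and 3 lowest whose pools shared a sign, the isoform families, complex II and core subunits. Members and lists (assembly factors, citric acid cycle, glycolysis, ribosomes, biogenesis, antioxidant, cell type markers) were chosen with earlier results of these data known. Alternatives changed background correction, normalisation, filter, dyes, blocks and pools left out; 3 were added after the data were seen. Promoters and their build came from RefSeq, and motifs were matched exactly. The values of 1 gene of the 90 are not reported here singly; it stays in the counts and medians.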

Additional observations from a re-analysis of the deposited data

How the results depend on the processing

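None of the 90 genes was called in the 24 alternatives, at any time point or in either contrast. The lowest adjusted p over them was 0.0505 (acute stress), 0.296 (8 days), 0.0653 (13 days) and 0.415 (recovery), each with only the arrays that carried stress in Cy5, against 0.799, 1, 0.311 and 0.999 as reported. That setting keeps the dye effect, and it also gave the most calls over all probes (67, 26, 18 and 46). The median of the 90 genes kept its sign in 27 settings at the first 3 time points and took the other sign in 5 of 27 in recovery. Of 3444 values of named genes under other settings, 121 moved by more than the spread of their pools, 151 took the other sign and 0 were called. These counts of signs, like those of the medians, include settings that could not change a ratio. Such settings were leaving out Aquantile, the replicate block, another variance model in limma, and leaving out a pool of another group. They kept the sign by construction.

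Median centring in place of loess moved the medians most at the first 2 time points. Following acute stress the 90 genes then had 0.214 and complexes I to V 0.211, 0.190, 0.221, 0.207 and 0.234, and after 8 days the values were -0.168 and -0.182, -0.211, -0.170, -0.103 and -0.162. Bright probes had 0.188 and -0.157 under that setting. After 13 days complex I then had 0.039 and complex III 0.038. With only probes well above background, complex IV had -0.027 after 8 days. With only the Cy5 arrays, complexes III and V had 0.085 and 0.106 after acute stress, complex V -0.001 after 8 days, and complexes II, III and V -0.111, 0.072 and 0.095 after 13 days. With only pools 2 and 3, chosen after seeing the data, complexes III and IV had 0.073 and 0.076 after acute stress, complexes IV and V 0.025 and -0.032 after 8 days, and complexes III and V 0.037 and 0.054 after 13 days. Leaving out a pool at a time gave 0.007 to 0.052 for complex I after acute stress (lowest without pool 2), -0.088 to -0.009 for complex I and -0.139 to -0.034 for complex II after 8 days (both nearest 0 without pool 3), -0.087 to 0.001 for complex II after 13 days (above 0 without pool 3), 0.022 to 0.073 for complex III and 0.017 to 0.076 for complex IV after acute stress, -0.023 to 0.025 for complex IV and -0.032 to -0.014 for complex V after 8 days, and 0.021 to 0.048 for complex III and 0.031 to 0.054 for complex V after 13 days. The sign of the complex IV median after 8 days thus rested on pool 1. The cause of these shifts was not tested.

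Pools of one number also shared slides: number 1 lay on slide 1, number 2 on slides 2 and 3, and number 3 on slides 4 and 5, scanned on another day. Their deviations from the group means correlated between 0.09 and 0.51 for number 1, -0.12 and 0.37 for number 2, and 0.03 and 0.45 for number 3, and 9 of 12 pools correlated best with their own number, a hint from the data and not the design. With the replicate block, 2, 1, 10 and 0 probes were called in time order, and 0 of the 90 genes. With the slide as a fixed block and the pool as a random block, the median of the 90 genes was 0.039, -0.038, 0.027 and -0.012, 0 of them were called, and complex IV had 0.003 after 8 days.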
